A study of Mus musculus with 5 samples.

Results

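The 44 genes described here encode the hydrolases of the lysosome with saposin precursor and progranulin, its main membrane proteins, 3 parts of its proton pump and the transcription factor Tfeb. They were chosen as a list of symbols and not by a rule on measured values, but earlier results of these data were known by then. All 44 were found among the 27729 genes of the deposited files. Each of them had 10 or more expected counts in every library, so none was lost to the filter on low counts, and 29 had 100 or more in every library.

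Mouse embryonic fibroblasts (MEFs) of the ICR strain, prepared per the study's methods from embryos without the head and internal organs, were profiled by RNA-seq in MEF medium with FBS (day 0) and after 2, 5, 10 and 14 days in 5C medium, which turns them into neuron-like cells. The study describes 5C as a simple defined mixture of DMEM/F12 with N2, the growth factor bFGF, LIF, vitamin C and 2-mercaptoethanol, so the day 0 library differs from the others in medium as well as in time. The labels name the medium 6C, and the treatment text beside them gives the last time point as 1 day later than the label of that library. There was 1 library per time point from cultures that hold converted and remaining cells together, so no difference between days has a replicate check and no test was possible. The 4 comparisons against day 0 share the day 0 library and are not independent of each other. Values are normalized counts, which are expected counts divided by a scale factor for the effective size of each library, and a change is the log2 of the ratio to day 0 after 1 was added to both values. A gene is counted as higher or lower here where it lay over 2-fold from day 0. Intervals in parentheses are exact 95% intervals that cover counting error only.

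Lysosomes are the acidic compartments in which cells digest proteins, glycans and lipids taken up from outside or delivered by autophagy. A proton pump, the V-ATPase, acidifies them, and heavily glycosylated membrane proteins shield the membrane from the enzymes inside. Tfeb and its relatives drive many lysosomal genes together through a short promoter element, the CLEAR element, whose core is the E-box CACGTG, while mTORC1 at the lysosomal surface holds them out of the nucleus. Macrophages and osteoclasts, which degrade much material, are known for high levels of particular cathepsins.

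Totals ranged from 2253748 expected counts on day 2 to 3890334 on day 0, and 3 counts correspond to between 0.771 and 1.33 per 1000000 counts. On day 2 the gene Gm42418 alone held 4.79% of all counts, against 0.0484% to 0.109% in the other libraries, and its part in the day 2 values was not tested. The fibroblast markers summed to between 77679 and 114869 normalized counts and were present in every library. Single markers went opposite ways, and 3 of the 10 (30%) were higher and 2 (20%) lower on day 14. Of all 13346 genes that reached 10 expected counts in any library, 24.5% were higher and 19.9% lower. Dcn, Col3a1 and Pdgfra had log2 changes of 4.86, 3.865 and 2.44 on day 14, and S100a4 of -2.41. Of the 9 neuron markers 3 (33.3%) were higher and 2 (22.2%) lower on day 14, against 24.5% and 19.9% of all genes. Tubb3, the TuJ1 antigen, went from 22.2 to 161 normalized counts and the synaptic vesicle gene Syp from 0 to 32.5, while Stmn2 went from 448 to 163 and Map2 from 196 to 45.6, and Rbfox3 was at 0 in all 5 libraries. The endothelial markers summed to 273 on day 0 and 8.9 on day 14. Most of this sum was Kdr alone, at 236 on day 0 and 3.58 on day 14. Of the 5 markers 2 reached 10 expected counts in any library.

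The summed level of the lysosomal genes was highest on day 5. In order of day their summed normalized counts were 54816, 71823, 79586, 50221 and 48053, and their share of all counts was 1.42%, 1.76%, 2.68%, 1.81% and 1.6%. The median log2 change of the members on days 2, 5, 10 and 14 was 0.23, 0.55, 0.45 and 0.18. Over all 13346 genes that reached 10 expected counts in any library the medians were -0.03, 0.05, 0.14 and 0.07. Of the 44 members, 27, 33, 27 and 26 had a change above 0 on the 4 days.

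In normalized counts, changes over 2-fold were no more frequent among the members than among all genes, except for higher levels on day 5. On day 2, 5 members (11.4%) were higher, against 15.2% of all genes, and 3 (6.82%) were lower, against 13.1%. On day 5, 11 members (25%) were higher, against 20.2% of all genes, and 0 were lower, against 13.6%. On day 10, 9 members (20.5%) were higher, against 28.7%, and 4 (9.09%) were lower, against 22.3%. On day 14, 8 members (18.2%) were higher, against 24.5%, and 1 (2.27%) was lower, against 19.9%. In TPM the shares over 2-fold above day 0 were 2.27%, 61.4%, 65.9% and 54.5% of the members, against 7.9%, 32%, 52.9% and 41.6% of all genes, so they also exceeded those of all genes on days 10 and 14. Relative to the median change in TPM they were 2.27%, 25%, 27.3% and 20.5%, against 11%, 13.5%, 20.6% and 18.1%. In normalized counts a total of 22 members (50%) stayed within 2-fold of day 0 on every day, which 32.8% of all genes did. Over the 4 days 16 members were higher on 1 or more days, 6 were lower on 1 or more days and 0 were both. The shares of all genes were not computed for these last counts.

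**Figure D1:**
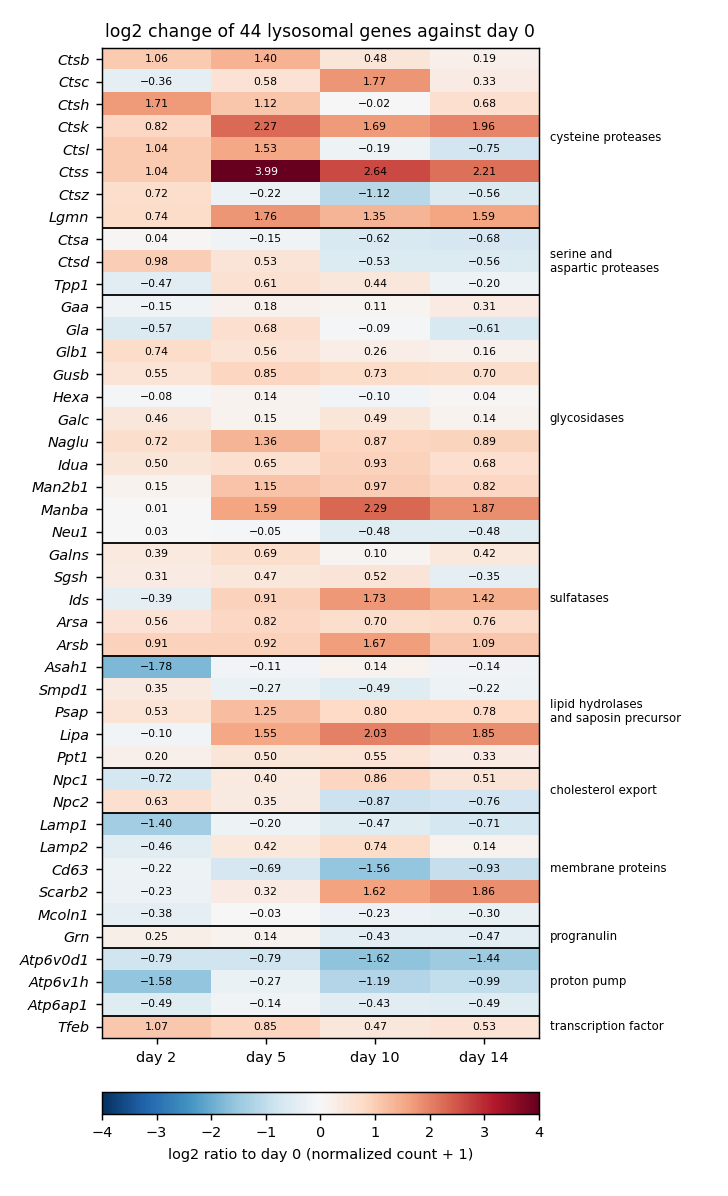
Log2 ratio of normalized count plus 1 to day 0 for each of the 44 lysosomal genes (rows, grouped by role) on days 2, 5, 10 and 14 (columns), with the value in each cell and red for above and blue for below day 0. The highest value is that of the cysteine protease Ctss, at 3.99 on day 5, while the proton pump genes are blue on every day. In TPM 10 of the values below 0 on day 5, and 14 each on days 10 and 14, lie above 0.

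The unit matters for these directions. TPM values, which are scaled per gene length and to 1000000 in each library, moved the median change of all genes to -0.20, 0.61, 1.09 and 0.79 on days 2, 5, 10 and 14, and the median of the members to -0.05, 1.17, 1.57 and 1.10. In TPM 6 members turned from above to below day 0 on day 2, while 10, 14 and 14 turned from below to above on the 3 later days. Relative to the median change of all genes in TPM, 4, 3, 2 and 2 members had another direction than in normalized counts. Values also moved with transcript length: on day 10 the 3337 genes with the shortest transcripts (107 to 1605 bases) had a median of -1.01 in normalized counts, and the 3337 with the longest (3800 bases and more) 0.86. The members, with a median length of 2412 bases against 2525 for all genes, had medians of -0.13 (6 genes), -0.10 (19), 0.57 (12) and 0.86 (7) in 4 length classes from short to long, against -1.01, -0.09, 0.41 and 0.86 for all genes. The part of transcript length in single values was not tested.

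**Figure D2:**
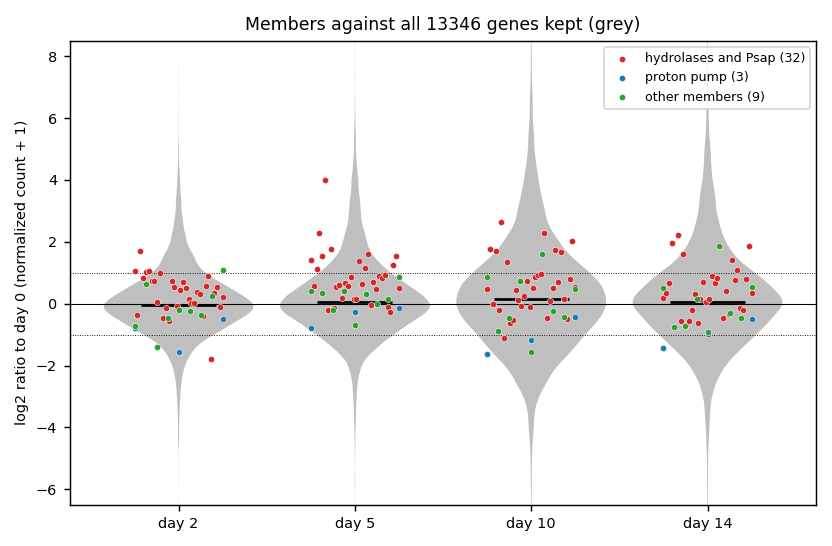
Log2 ratio to day 0 on days 2, 5, 10 and 14 for all 13346 genes kept (grey shapes, width by number of genes, black bar at the median) and for the members (points: 32 hydrolases and Psap in red, 3 pump genes in blue, the 9 other members in green). Dotted lines mark 2-fold, and a few grey genes lie beyond the axis. On day 5 the members' median was 0.55 against 0.05 for all genes, while the pump genes lay below 0 on each day in normalized counts, although Atp6v1h and Atp6ap1 lay above 0 on day 5 in TPM.

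The days on which members were highest depended on the unit. In normalized counts day 5 held the highest value of 14 members (31.8%), which was so for 10.6% of all genes, and day 14 of 2 members (4.55%), against 17.6% of all genes. Days 0, 2 and 10 held the highest values of 6, 10 and 12 members (13.6%, 22.7% and 27.3%), against 23.8%, 21.5% and 26.4% of all genes. The 2 genes highest on day 14 were Gaa and Scarb2. In TPM day 10 held the highest value of 28 members (63.6%, against 50.4% of all genes) and day 5 that of 13 (29.5%, against 11.8%), and the 2 highest on day 14 were Ctsh and Tfeb. Day 5 thus held a larger share of the members than of all genes in both units. Between days 10 and 14 the members differed little, with a median of -0.06 against 0.02 for all genes. In that step 0 members were over 2-fold higher, against 4.73% of all genes, and 1 was over 2-fold lower (2.27%, against 8.33%), namely Ctsc.

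Per transcript length, a few genes made up most of the lysosomal RNA. Summed TPM of the members was 9998, 10158, 20508, 17456 and 14443 in order of day, and the 5 most abundant members held between 52.4% and 67% of it. On day 0 the order was Cd63 (2699 TPM), Ctsd (1619), Lamp1 (758), Psap (592), Ctsl (545) and Grn (450). Ctsd was first on days 2, 5 and 10, at 2661, 3825 and 2546 TPM. On day 14 Cd63 (2579 TPM) was again first, before Ctsd (2018), Psap (1840) and Lamp1 (851). Between 27 and 32 of the 43 pairs of neighbours in this order had overlapping counting intervals on each day, among them Ctsz and Npc2 on day 0 (348 and 347 TPM), so only the upper part of the order is resolved at this depth.

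The largest change of any member was that of a protease, Ctss, followed by Manba, Ctsk and Lipa. The 8 cysteine proteases cleave proteins with a cysteine in the active site. Of these, 4, 6, 4 and 3 were higher on days 2, 5, 10 and 14. Of all genes 15.2%, 20.2%, 28.7% and 24.5% were higher on these days. Their medians were 0.93, 1.47, 0.91 and 0.50, against -0.03, 0.05, 0.14 and 0.07 for all genes. On days 2, 5 and 10 they were the highest medians of the roles with more than 1 gene. The summed normalized counts of the 8 proteases were 9485, 18767, 24196, 11435 and 10001. Ctss, the cathepsin of antigen-presenting cells, had 18.8, 39.8, 314, 123 and 90.3 normalized counts from day 0 to day 14. It was lowest on day 0, and its log2 changes were 1.04 (0.13 to 2.05), 3.99 (3.39 to 4.81), 2.64 (2.02 to 3.47) and 2.21 (1.55 to 3.05). Ctsk, the collagen-degrading cathepsin known from osteoclasts, had 167, 297, 810, 543 and 653 normalized counts. Its changes of 0.82 (0.51 to 1.15), 2.27 (2.04 to 2.52), 1.69 (1.46 to 1.95) and 1.96 (1.72 to 2.22) lay over 2-fold on each of the 3 later days. Lgmn, legumain, which cleaves after asparagine and processes other cathepsins, had 494, 825, 1672, 1260 and 1489 normalized counts, with changes of 0.74 (0.55 to 0.93), 1.76 (1.62 to 1.91), 1.35 (1.21 to 1.497) and 1.59 (1.45 to 1.74).

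Other cysteine proteases were high for a shorter time. Ctsb, an abundant endo- and exopeptidase, had 4227, 8805, 11153, 5894 and 4831 normalized counts and was higher on days 2 (1.06) and 5 (1.40), but lay within 2-fold afterwards (0.48 and 0.19). Ctsl, an endopeptidase with broad substrate range, had 3039, 6241, 8808, 2662 and 1804, with changes of 1.04 (0.97 to 1.11), 1.54 (1.48 to 1.59), -0.19 (-0.26 to -0.12) and -0.75 (-0.83 to -0.67). It was therefore below day 0 on the last 2 days in normalized counts, but not in TPM, where it was 545 on day 0, 1070 on day 10 and 592 on day 14. Its TPM changes of 0.97 and 0.12 on these days were below the median change of all genes in TPM (1.09 and 0.79). Ctsh, an aminopeptidase, had 53.4, 177, 117, 52.7 and 86.1 normalized counts and was furthest above day 0 on day 2, at 1.71 (1.24 to 2.24), while its TPM was highest on day 14 (49.1). Ctsc, which activates serine proteases of immune cells, had 72.3, 56.1, 108, 250 and 91.2 and stood out on day 10 alone, at 1.77 (1.42 to 2.18), with a step of -1.45 from day 10 to day 14. Ctsz, a carboxypeptidase, had 1413, 2325, 1213, 651 and 956, with a change of -1.12 on day 10. Its TPM was 348 on day 0 and 358 on day 10. That change of 0.04 in TPM was below the median change of 1.09 for all genes in TPM.

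The serine and aspartic proteases lay within 2-fold of day 0 on every day in normalized counts. In TPM Ctsd lay at 1.24 on day 5, and Tpp1 at 1.31 on day 5 and 1.60 on day 10. Ctsd, the aspartic protease, had 9757, 19236, 14096, 6745 and 6637 normalized counts and lay just inside 2-fold on day 2 at 0.98 (0.94 to 1.02). Its changes of -0.53 (-0.57 to -0.49) on day 10 and -0.56 (-0.60 to -0.51) on day 14 went the other way in TPM, which was 1619 on day 0 and 2546 and 2018 on these days. The TPM changes of 0.65 and 0.32 were below the median change of all genes in TPM (1.09 and 0.79). Ctsa, a carboxypeptidase that also stabilizes neuraminidase, ranged from 1705 to 2826 normalized counts and was lowest on day 14 in normalized counts (-0.68) but not in TPM (385 on day 0 and 494 on day 14). Its day 14 change of 0.36 in TPM was below the median of 0.79 for all genes. The reads of Ctsa and of its neighbour Pltp on the opposite strand cannot be told apart where the genes overlap. Tpp1, a tripeptidyl peptidase lost in a childhood storage disease, ranged from 572 on day 2 to 1207 on day 5.

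**Figure D3:**
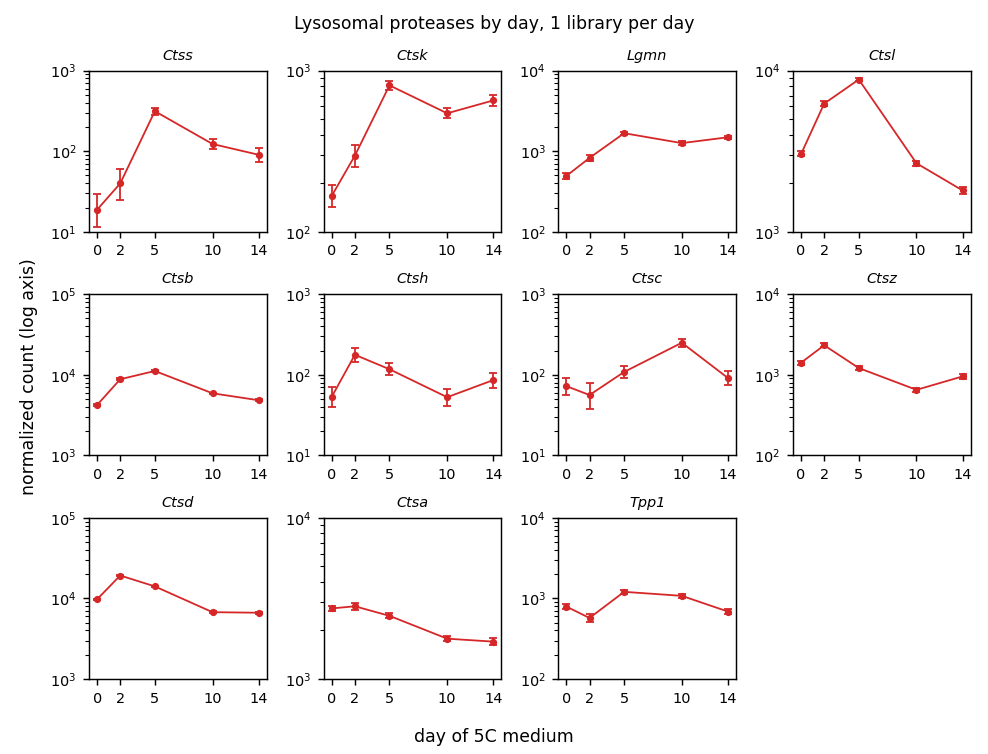
Normalized counts (log axis) of the 11 lysosomal proteases by day of 5C medium, 1 library per day, with exact 95% Poisson intervals of the counts as bars. Ctss goes from 18.8 on day 0 to 314 on day 5, Ctsb and Ctsl peak on day 5, Ctsc peaks on day 10 at 250, and Ctsd peaks on day 2 at 19236. In TPM Ctsd peaked on day 5 (3825) instead.

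The glycosidases, which remove sugars from glycoproteins, glycolipids and glycosaminoglycans, moved less. Of 11, 0, 3, 1 and 1 were higher on the 4 days, against 15.2%, 20.2%, 28.7% and 24.5% of all genes. On these days 0 were lower, against 13.1%, 13.6%, 22.3% and 19.9%. The medians were 0.15, 0.65, 0.49 and 0.31, the first of which was -0.11 in TPM. Manba, beta-mannosidase, which acts last in the breakdown of N-glycans, had 32.7, 32.9, 101, 164 and 122 normalized counts. It was at its starting level on day 2 (0.01, -0.92 to 0.87) and higher on days 5, 10 and 14, by 1.59 (1.05 to 2.23), 2.29 (1.80 to 2.90) and 1.87 (1.35 to 2.50). Naglu, which acts on heparan sulfate, had 111, 183, 287, 204 and 206 normalized counts and was higher on day 5 (1.36), as was Man2b1, alpha-mannosidase (303, 337, 671, 596 and 535, with 1.15 on day 5). Gusb, beta-glucuronidase, had changes of 0.55, 0.85, 0.73 and 0.70, and Idua, alpha-iduronidase, of 0.50, 0.65, 0.93 and 0.68, at no more than 72.7 normalized counts.

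The other glycosidases stayed within 2-fold of day 0 in normalized counts. In TPM the day 10 changes of Gaa, Hexa, Glb1, Gla and Galc were 1.26, 1.07, 1.40, 1.04 and 1.53, and that of Neu1 was 0.52. The median change of all genes in TPM was 1.09 on that day. Gaa, acid alpha-glucosidase, which degrades glycogen, ranged from 935 to 1291 normalized counts, and Hexa, the alpha subunit of beta-hexosaminidase, from 1150 to 1357. Glb1, beta-galactosidase, had its largest change on day 2 (0.74), Gla, alpha-galactosidase, on day 5 (0.68), and Galc, galactosylceramidase, the enzyme that degrades a main lipid of myelin, on day 10 (0.49, with an interval of 0.08 to 0.93). Neu1, neuraminidase, lay at -0.48 on both day 10 and day 14 in normalized counts, and above its day 0 level of 27.1 TPM in TPM (39.5 and 34.0). On both days its change in TPM (0.52 and 0.31) was below the median change of all genes (1.09 and 0.79).

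The 5 sulfatases take sulfate groups off glycosaminoglycans and sulfolipids. Of these 0, 0, 2 and 2 were higher on the 4 days, against 15.2%, 20.2%, 28.7% and 24.5% of all genes. On these days 0 were lower, against 13.1%, 13.6%, 22.3% and 19.9%. The higher ones were Ids and Arsb, with transcripts of 4972 and 3989 bases. Of all genes with transcripts of 3800 bases and more, 45.7% were higher on day 10 and 32.4% on day 14. Sgsh, in the same length class, stayed within 2-fold of day 0 in normalized counts. The part of length in these values was not tested. Ids, iduronate sulfatase, had 81.2, 61.5, 153, 272 and 219 normalized counts, with changes of -0.39 (-1.02 to 0.19), 0.91 (0.53 to 1.31), 1.73 (1.40 to 2.11) and 1.42 (1.07 to 1.81). Arsb, which acts on dermatan sulfate, had 56.4, 107, 108, 181 and 121, with changes of 0.91 (0.37 to 1.47), 0.92 (0.47 to 1.41), 1.67 (1.27 to 2.13) and 1.09 (0.64 to 1.57). Arsa, the sulfatase of the myelin lipid sulfatide, was between 0.56 and 0.82 above day 0 on all 4 days. Sgsh, a heparan sulfatase, had 82.7 normalized counts on day 0 and between 64.8 and 119 afterwards, and Galns had between 106 and 172 in all, at a locus where Gm20388 is annotated on the opposite strand.

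Among the 5 genes of lipid breakdown, Lipa stood apart late and Asah1 early. Lipa, acid lipase, which frees cholesterol from its esters, had 132, 123, 389, 539 and 478 normalized counts. It did not differ from day 0 beyond counting error on day 2 (-0.10, -0.54 to 0.34) and was higher on the later days, by 1.55 (1.28 to 1.85), 2.03 (1.77 to 2.31) and 1.85 (1.58 to 2.14). Asah1, acid ceramidase, had 775, 224, 716, 856 and 704, so that day 2 stood alone at -1.78 (-2.07 to -1.51), the lowest value of any member, beside -0.11 (-0.26 to 0.03), 0.14 (0.01 to 0.28) and -0.14 (-0.28 to 0.01) later. In TPM Asah1 was 125 on day 0, 29.6 on day 2 and between 240 and 404 afterwards, above day 0.

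Psap, the precursor of the saposins, small proteins that lift lipids out of membranes for the hydrolases, had 4316, 6252, 10232, 7521 and 7431 normalized counts. Its changes were 0.53 (0.47 to 0.60), 1.25 (1.195 to 1.30), 0.80 (0.75 to 0.85) and 0.78 (0.73 to 0.84). Smpd1, acid sphingomyelinase, ranged from 251 to 450 normalized counts, and Ppt1, which removes palmitate from proteins, from 288 to 422. Ppt1 overlaps the abundant gene Cap1 on the opposite strand. The cholesterol exporters parted: Npc1, the membrane protein, had 168, 102, 223, 307 and 240 normalized counts and was highest on day 10, while Npc2, its soluble partner, had 3212, 4970, 4082, 1755 and 1902 and was highest on day 2, or on day 5 in TPM. Npc2 lay at -0.87 on day 10 and -0.76 on day 14 in normalized counts and above day 0 in TPM, at 347 on day 0 and 426 and 377 on these days. Its TPM changes of 0.30 and 0.12 were below the median change of all genes in TPM (1.09 and 0.79).

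The list held 5 membrane proteins. On days 10 and 14, on which 28.7% and 24.5% of all genes were higher, 1 of them was higher. This was Scarb2, known as LIMP-2, which carries the enzyme glucocerebrosidase to lysosomes, with 250, 213, 312, 771 and 908 normalized counts. Its changes were -0.23 (-0.56 to 0.09), 0.32 (0.08 to 0.56), 1.62 (1.42 to 1.83) and 1.86 (1.66 to 2.06). In TPM it was highest on day 10 (290) rather than day 14 (279). Lamp1, a heavily glycosylated lining protein, had 4844, 1840, 4206, 3489 and 2965 normalized counts. Day 2 stood apart at -1.40 (-1.495 to -1.30), and the later values of -0.20 (-0.26 to -0.15), -0.47 (-0.53 to -0.42) and -0.71 (-0.77 to -0.64) lay below day 0 in normalized counts. TPM was above day 0 on these days, at 1076, 1225 and 851 against 758, but the changes stayed below the median change of all genes in TPM.

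Lamp2, its relative, which also serves chaperone-mediated autophagy, had 1315, 953, 1758, 2197 and 1448 normalized counts. Its changes were -0.46 (-0.61 to -0.32), 0.42 (0.32 to 0.52), 0.74 (0.65 to 0.83) and 0.14 (0.03 to 0.24), the last of which turned to -0.06 relative to the median of all genes in TPM. Cd63, a tetraspanin of late endosomes and exosomes, had 6761, 5821, 4202, 2289 and 3548. It was lower on day 10, and its changes were -0.22 (-0.28 to -0.16), -0.69 (-0.74 to -0.63), -1.56 (-1.62 to -1.502) and -0.93 (-0.99 to -0.87), of which that of day 5 was 0.01 in TPM. The median change of all genes in TPM was 0.61 on that day. Mcoln1, the calcium channel of the lysosome, stayed between 192 and 249 normalized counts. Grn, progranulin, a secreted and lysosomal protein, had 2168 on day 0 and between 1569 and 2574 afterwards.

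The proton pump ran against the hydrolases in normalized counts. Atp6v0d1, the d subunit of the membrane sector, had 1264, 733, 732, 409 and 467 normalized counts, below day 0 in each later library and in each unit. Its changes were -0.79 (-0.95 to -0.62), -0.79 (-0.92 to -0.66), -1.63 (-1.77 to -1.48) and -1.44 (-1.59 to -1.29), the lowest of all members on days 5, 10 and 14. Atp6v1h, a regulatory subunit of the catalytic sector, had 418, 139, 347, 183 and 210. Its changes were -1.58 (-1.95 to -1.23), -0.27 (-0.47 to -0.07), -1.19 (-1.42 to -0.96) and -0.99 (-1.23 to -0.76), with the day 5 value at 0.43 in TPM. That value was below the median change of all genes in TPM. Atp6ap1, an accessory protein needed to assemble the pump, had 1364, 973, 1239, 1010 and 973. Its changes of -0.49 (-0.63 to -0.34), -0.14 (-0.25 to -0.03), -0.43 (-0.54 to -0.33) and -0.49 (-0.60 to -0.37) turned to 0.58, 0.75 and 0.39 in TPM on days 5, 10 and 14. On each of these days they were below the median change of all genes in TPM.

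The 12 other pump subunits examined lay mostly on the same side of day 0 as these 3 genes. Over all 15, 4, 2, 10 and 7 were lower on days 2, 5, 10 and 14, against 13.1%, 13.6%, 22.3% and 19.9% of all genes. On these days 0 were higher, against 15.2%, 20.2%, 28.7% and 24.5%. The medians of the 15 were -0.79, -0.37, -1.21 and -0.99. In TPM the medians were -1.03, 0.33, -0.07 and -0.12, against -0.20, 0.61, 1.09 and 0.79 for all genes, so the pump lay below the median gene on each day in both units. The 32 hydrolases and Psap had medians of 0.42, 0.68, 0.50 and 0.33 in normalized counts and 0.15, 1.37, 1.67 and 1.22 in TPM. The lowest were Atp6v1f with -2.33, Atp6v0e with -2.10, Atp6v1d with -1.85 and Atp6v0b with -1.75, all on day 10, and all 4 have transcripts under the median length of the members. The median length of the 15 pump genes was 1623 bases, against 2535 for the hydrolases and Psap, and the part of length in this difference was not tested. On day 10, 50.1% of all genes with transcripts of 107 to 1605 bases were lower, and 21.7% of those of 1605 to 2524 bases. Atp6v0a1, of the membrane sector, lay above day 0 on each day (0.55, 0.66, 0.20 and 0.17) and has a transcript of 3574 bases. It was chosen for mention after its values were seen.

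**Figure D4:**
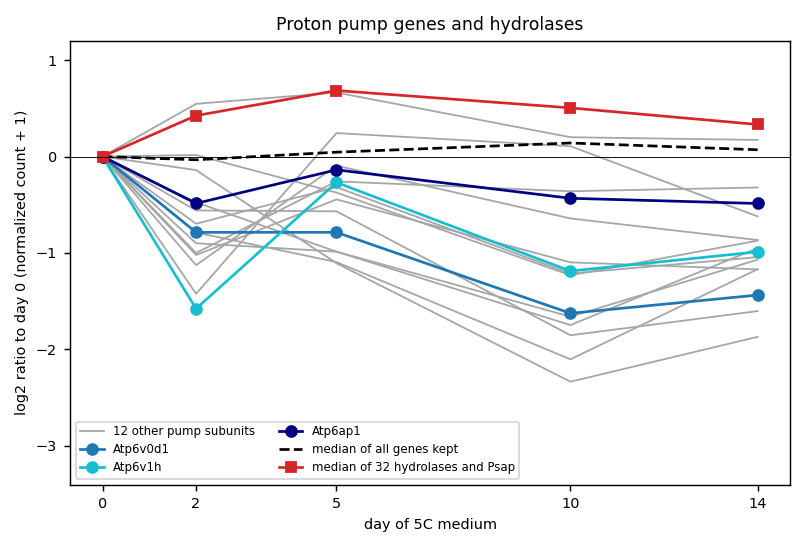
Log2 ratio to day 0 by day for Atp6v0d1, Atp6v1h and Atp6ap1 (blue lines), the 12 other proton pump subunits (grey lines), the median of the 32 hydrolases and Psap (red) and the median of all genes kept (dashed). The pump median of all 15 genes is -1.21 on day 10 while the hydrolase median is 0.50. In TPM these medians were -0.07 and 1.67, against 1.09 for all genes.

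Atp6v0d2, the relative of Atp6v0d1 known from osteoclasts and macrophages, was not among the members and was read for comparison. It had 0, 12, 112, 64 and 46 expected counts. Its ratios to a floor of 3 counts in the day 0 library were 7.3, 33.0, 15.4 and 13.8 on days 2, 5, 10 and 14. These ratios leave out counting error. The lower ends of the exact intervals of its log2 changes were 2.345, 4.723, 3.604 and 3.435. Of the 2 d subunits, one was thus below and the other above day 0 in each later library.

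Tfeb itself had few counts, so its values are among the least precise. It had 28.7, 61.5, 52.5, 40.0 and 42.0 normalized counts, and changes of 1.07 (0.34 to 1.87), 0.85 (0.21 to 1.56), 0.47 (-0.19 to 1.18) and 0.53 (-0.15 to 1.27). The counting intervals span 0 on days 10 and 14, and on day 10 the change was below the median of all genes in TPM. Tfe3, a relative, had 167, 148, 219, 203 and 165 normalized counts and stayed within 2-fold. Mitf, another relative, had 6.93, 25.3, 35.0, 27.9 and 25.9, with changes between 1.73 and 2.18. Tfe3 and Mitf were chosen for mention after their values were seen. Of 14 further genes of these factors and of mTORC1 at the lysosome, 1, 2, 2 and 1 were higher on the 4 days. These shares of 7.14%, 14.3%, 14.3% and 7.14% stood against 15.2%, 20.2%, 28.7% and 24.5% of all genes. On these days 3, 2, 5 and 4 (21.4%, 14.3%, 35.7% and 28.6%) were lower, against 13.1%, 13.6%, 22.3% and 19.9% of all genes. The lower ones were led by the Ragulator subunits that anchor mTORC1, Lamtor2 (-1.87 on day 10), Lamtor3 (-1.86 on day 2), Lamtor4 (-1.71 on day 10) and Lamtor1 (-1.67 on day 10). Their transcripts are short, at 659, 1295, 755 and 1184 bases. Of all genes with transcripts of 107 to 1605 bases, 10.5% were lower on day 2 and 50.1% on day 10. In TPM Lamtor3 was 58.9 on day 0, 13.4 on day 2 and between 60.1 and 64.0 afterwards. The part of length in these values was not tested.

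The promoters of the members were read for the E-box that Tfeb and its relatives bind. RefSeq windows of 300 bases (250 before to 50 after the start, GRCm38.p6) were found for 38 of the 44 genes, in 43 windows. CACGTG, which reads the same on both strands, was in 13 windows (30.2%), against 7.15% of all 32851 windows and 9.85% of the windows of genes kept. The longer TCACGTG, on either strand, was in 12 windows (27.9%, against 3.77% and 5.84%), and the full palindrome TCACGTGA, which contains both, in 5 (11.6%, against 0.974% and 1.82%). The 13 genes were Arsa, Atp6v0d1, Ctsa, Ctsd, Ctsl, Gaa, Gla, Glb1, Lamp1, Lgmn, Mcoln1, Naglu and Sgsh. Stretches of 129 bases, from 110 before to 19 from the start, are printed with CACGTG in capitals. The first 3 show the motif in genes that stayed within 2-fold from day 5 on in normalized counts, with 4 copies in Lamp1.

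Lamp1, chr8:13159051-13159179, plus strand: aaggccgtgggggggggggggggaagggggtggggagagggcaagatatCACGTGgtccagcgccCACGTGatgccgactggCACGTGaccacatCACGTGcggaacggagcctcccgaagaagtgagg
Ctsd, chr7:142387809-142387937, minus strand: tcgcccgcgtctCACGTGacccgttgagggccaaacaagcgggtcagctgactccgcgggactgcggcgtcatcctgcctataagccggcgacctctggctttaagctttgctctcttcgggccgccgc
Mcoln1, chr8:3500409-3500537, plus strand: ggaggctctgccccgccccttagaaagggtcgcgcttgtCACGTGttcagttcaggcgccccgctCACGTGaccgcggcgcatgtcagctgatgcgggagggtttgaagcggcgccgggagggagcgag

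Lgmn and Naglu were higher on day 5 (1.76 and 1.36), and Atp6v0d1 was the lowest member on days 10 and 14. The windows of Naglu and Atp6v0d1 and 1 of the 2 windows of Lgmn, the one printed, hold the motif. In Atp6v0d1 its first base lies 3 bases before the start, so the motif spans the start.

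Lgmn, chr12:102439074-102439202, minus strand: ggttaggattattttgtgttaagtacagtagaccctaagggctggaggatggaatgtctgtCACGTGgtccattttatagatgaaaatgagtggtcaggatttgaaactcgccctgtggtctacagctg
Naglu, chr11:101069984-101070112, plus strand: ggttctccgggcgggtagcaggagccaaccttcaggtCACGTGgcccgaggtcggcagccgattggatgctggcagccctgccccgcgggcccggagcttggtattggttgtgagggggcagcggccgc
Atp6v0d1, chr8:105566046-105566174, minus strand: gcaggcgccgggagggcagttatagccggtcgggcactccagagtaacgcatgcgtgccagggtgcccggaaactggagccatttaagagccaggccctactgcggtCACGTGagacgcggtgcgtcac

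Ctss, the member furthest above day 0, and Scarb2, which was highest on day 14 in normalized counts, hold no CACGTG in their windows.

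Ctss, chr3:95526676-95526804, plus strand: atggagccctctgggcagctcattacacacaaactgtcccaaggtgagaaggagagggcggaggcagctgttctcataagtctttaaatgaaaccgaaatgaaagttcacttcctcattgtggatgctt
Scarb2, chr5:92505639-92505767, minus strand: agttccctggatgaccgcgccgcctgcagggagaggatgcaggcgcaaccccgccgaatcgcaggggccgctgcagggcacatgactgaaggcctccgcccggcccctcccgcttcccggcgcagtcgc

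Genes with and without the motif had like medians on days 2 and 5 and differed on days 10 and 14, which describes letters in a window only. The 13 genes with CACGTG had median changes of 0.31, 0.53, -0.09 and -0.35 on days 2, 5, 10 and 14, against 0.20, 0.58, 0.73 and 0.33 for the 25 without it. On day 10, 1 of the 13 was higher and 1 lower, against 8 higher and 2 lower of the 25. Of all genes 28.7% were higher and 22.3% lower on that day.

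Macrophage markers were higher in the same libraries as several cathepsins. Of 20 markers, 19 reached 10 expected counts in any library. Those of the 19 that were higher numbered 19, 18, 16 and 15 on days 2, 5, 10 and 14, against 15.2%, 20.2%, 28.7% and 24.5% of all genes. The summed normalized counts of all 20 were 352, 2862, 4620, 2667 and 1886 from day 0 to day 14. Lyz2, lysozyme, gave the largest part of this sum, at 108, 1177, 2738, 1407 and 974. The defining markers were low: Ptprc, the pan-leukocyte marker, had 0, 1, 8, 22 and 4 expected counts, Spi1, the macrophage transcription factor, 1, 6, 33, 17 and 8, and Adgre1, which encodes F4/80, 3, 8, 71, 102 and 40. Csf1r, the receptor for the macrophage growth factor, had 42, 64, 128, 99 and 68, and Itgam went from 63 and 98 on days 0 and 2 to between 8 and 20 later. Ptprc was at 0 on day 0, and Cx3cr1 was at 0 on days 10 and 14. The sum of these markers and Ctss were both highest on day 5 and both lower on day 14 than on day 10, and the part of macrophages in the values of Ctss, Ctsk, Ctsb, Ctsl, Ctsh, Lipa or any other member was not tested. In bulk RNA, more cells of a type and more RNA per cell cannot be told apart. Of the 7 osteoclast markers 3 reached 10 expected counts in any library. These were Atp6v0d2, Acp5 (3.96, 36.2, 19.3, 15.0 and 17.9 normalized counts) and Nfatc1 (1.04 on day 10). On the 4 days 2, 2, 3 and 2 of them were higher, against the same shares of all genes. Dcstamp and Calcr were at 0 in all 5 libraries.

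Markers of Schwann cells and neural crest followed another course, with sums of 133, 217, 1167, 7145 and 10104 normalized counts. All 9 were higher on days 10 and 14, against 28.7% and 24.5% of all genes. The part of these cells in the values of Scarb2, Lipa, Manba, Ids or Arsb was not tested either.

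**Figure D5:**
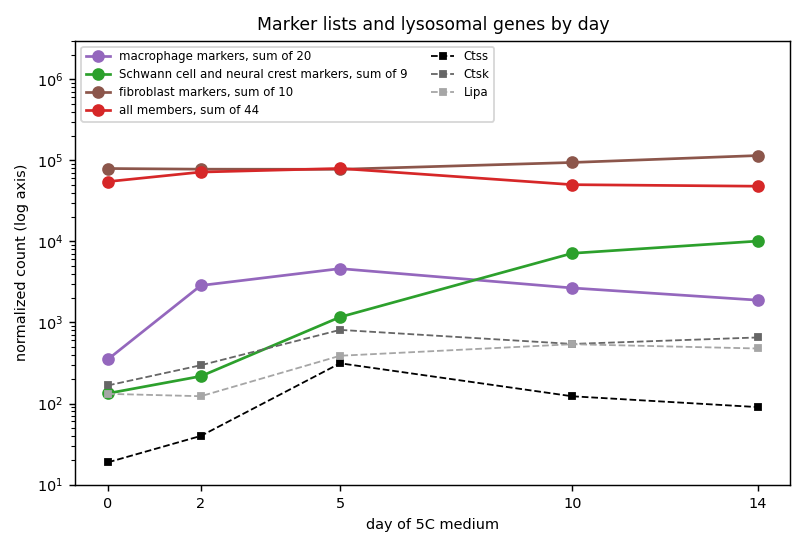
Normalized counts (log axis) by day for the sums of the 20 macrophage, 9 Schwann cell and neural crest and 10 fibroblast markers and of the 44 lysosomal genes, and for Ctss, Ctsk and Lipa alone. The macrophage sum peaks on day 5 at 4620, as do Ctss (314), Ctsk (810) and the lysosomal sum (79586), while Lipa peaks on day 10 and the Schwann cell and neural crest sum is highest on day 14 at 10104. In TPM the lysosomal sum also peaked on day 5, at 20508.

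Without the 9 cathepsins, 1, 6, 6 and 6 of the remaining 35 members were higher on days 2, 5, 10 and 14. Of all genes 15.2%, 20.2%, 28.7% and 24.5% were higher on these days. The medians of the 35 members were 0.03, 0.47, 0.47 and 0.16. The 5 members higher on day 2 (11.4%, against 15.2% of all genes) were the cathepsins Ctsb, Ctsh, Ctsl and Ctss, with Tfeb beside them. In TPM only 1 member, Ctsh, was over 2-fold above day 0 on day 2. The 5 members higher on all of days 5, 10 and 14 were Ctsk, Ctss, Lgmn, Manba and Lipa (11.4%, against 15.1% of all genes).

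Of 23 further lysosomal hydrolases and transporters outside the list, 6, 5, 5 and 5 were higher (26.1%, 21.7%, 21.7% and 21.7%). Of all genes 15.2%, 20.2%, 28.7% and 24.5% were higher. On each day 1 of the 23 was lower (4.35%), against 13.1%, 13.6%, 22.3% and 19.9% of all genes. The medians of the 23 were 0.13, 0.52, 0.24 and 0.27, the first of which was -0.12 in TPM. Ctso, a cysteine cathepsin, had 14.8, 41.6, 88.9, 144 and 204 normalized counts and reached 3.69 on day 14, and Hyal1, which cleaves hyaluronan, had 12.9, 14.7, 50.1, 108 and 70.0 and reached 2.97 on day 10. Dnase2a, the acid DNase, had 73.7, 269, 117, 83.8 and 80.1 and was highest on day 2 (1.86). Tmem192, a lysosomal membrane protein, had 245, 186, 113, 48.6 and 72.4 and lay at -2.31 on day 10.

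Of 7 genes that sort hydrolases to lysosomes or activate them, 0, 3, 3 and 2 were higher (0%, 42.9%, 42.9% and 28.6%, against 15.2%, 20.2%, 28.7% and 24.5% of all genes) and 0 were lower. The medians were -0.36, 0.31, 0.04 and 0.32. Igf2r, the large mannose 6-phosphate receptor, had 1175, 1369, 3157, 3477 and 1532 normalized counts and was higher on days 5 (1.43) and 10 (1.56). Sort1, sortilin, reached 2.75 on day 10, and Gnptab, which starts the mannose 6-phosphate tag, 2.17. Gnptg, which assists Gnptab, lay at -0.82 on day 2 and within 0.26 of day 0 on the later days. Igf2r, Sort1 and Gnptab are long transcripts of 8887, 5878 and 5194 bases.

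Of 13 autophagy genes 0, 0, 1 and 1 (0%, 0%, 7.69% and 7.69%) were higher, against 15.2%, 20.2%, 28.7% and 24.5% of all genes. Lower were 2, 1, 4 and 2 (15.4%, 7.69%, 30.8% and 15.4%), against 13.1%, 13.6%, 22.3% and 19.9% of all genes. The medians were -0.32, -0.12, -0.53 and -0.51, and in TPM -0.51, 0.23, 0.49 and 0.36. Gabarap, which labels autophagosomes, had 4276, 4344, 2190, 1158 and 1394 normalized counts, with changes of -0.97, -1.88 and -1.62 on days 5, 10 and 14. Map1lc3a, of the same family, lay at -1.55 on day 10. Both transcripts are short, at 920 and 860 bases. In TPM Gabarap went from 1660 on day 0 to 1025 on day 10, and Map1lc3a from 202 to 158. Atg5, which attaches these proteins to lipid, lay at -1.23 on day 14 in normalized counts. Ulk1, the kinase that starts autophagy, was higher on days 10 (1.23) and 14 (1.05). Of the inhibitors of cysteine cathepsins, Cstb, cystatin B, had 2186, 865, 658, 235 and 370, lower on each day and lowest on day 10 at -3.21 (-3.39 to -3.05), with a short transcript of 599 bases. Cst3, cystatin C, had 1434, 1970, 1396, 851 and 1395, and Cst6, cystatin E/M, was highest on day 2, with 12.9, 293, 127, 20.9 and 1.79.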

How the data were processed

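For each of 5 libraries (1 per time point) the authors deposited expected counts per gene, RSEM's estimates of reads per gene, unscaled, and TPM values, which divide by gene length and scale to 1000000 per library. Per the labels, Bowtie, RSEM and mm10 were used and libraries were made with an Illumina TruSeq RNA kit. Versions are not given in the sources used here. FPKM values were not used. No setting for strand was stated, so reads of a gene and an overlapping partner on the other strand cannot be told apart. Of the members, 22 have an overlapping annotated gene.

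Symbols and coordinates came from GENCODE M21 (GRCm38) for 27247 of 27729 genes. Expected counts were rounded for the library sizes (TMM, edgeR 4.0.16, R 4.3.3) and divided by the resulting scale factors. The 13346 genes that reached 10 expected counts in any library were kept. A change is log2 of the ratio to day 0, with a pseudocount of 1, and the threshold was 2-fold. With 1 library per time point no test was run. Exact Clopper-Pearson 95% intervals of rounded counts, without a pseudocount, cover counting error only, and so do the smallest shares that 3 counts can show. Promoter windows came from RefSeq (GRCm38.p6).

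The members, lists and settings were chosen with earlier results of these data known. All 44 members are named. Full values are given for the 12 with the largest change among those with 100 or more counts in 1 or more libraries, the 5 highest in TPM on day 0, and Tfeb, Lamp1, Lamp2 and the 3 pump genes. Of each other list at most 4 genes with 50 or more counts are named by size of change, beside the defining macrophage markers. Atp6v0a1, Tfe3, Mitf, Acp5, Cx3cr1, Rbfox3, Dcstamp and Calcr were named after their values were seen. Alternatives were DESeq2 1.42.0 size factors, TPM values, centring on the median change, a pseudocount of 5, stricter and no filters, and the members without cathepsins. TPM relative to its median was added after seeing the data. Scripts ran in Python 3.11.15 (scipy 1.17.1, numpy 2.4.6, pandas 2.3.3, matplotlib 3.10.9) and were tested on simulated counts.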

Additional observations from a re-analysis of the deposited data

How the results depend on the processing

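Differences between cultures or preparations were not measured, and genes with few counts, such as Tfeb and Manba, have wide counting intervals. No paired analysis was possible because each time point has 1 library.

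With TPM values the members over 2-fold above day 0 numbered 1, 27, 29 and 24 on days 2, 5, 10 and 14, those below 0 on both day 10 and day 14, and the medians were -0.049, 1.17, 1.57 and 1.10, while 2 members were over 2-fold lower on day 14 than on day 10. All genes moved with them, to 7.9%, 32%, 52.9% and 41.6% above. Directions reversed in TPM for 6, 10, 14 and 14 members on the 4 days. Among them were Cd63 on day 5 (0.014), Ctsd on days 10 and 14 (0.65 and 0.32) and Lamp1 on days 5, 10 and 14 (0.51, 0.69 and 0.17). So were Ctsl on days 10 and 14 (0.97 and 0.12), Atp6v1h on day 5 (0.43) and Atp6ap1 on days 5, 10 and 14 (0.58, 0.75 and 0.39). All of these changes lay below the median change of all genes in TPM. Others were Asah1 on days 5 and 14 (0.94 and 1.19), Ctsh on day 10 (1.69) and Manba on day 2 (-0.36). Relative to the median change of all genes in TPM, 1 member was above on day 2 and the median on day 14 was 0.32. Lamp2 (-0.06) was 1 of the 2 members reversed on day 14.

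With DESeq2's size factors 2 members were below on day 14, as with changes relative to the median of all genes, where the median on day 10 was 0.31. With a pseudocount of 5, 3 were above on day 2. Without the cathepsins 1 was above on day 2 and 6 on day 5, the day 2 median was 0.025, and 0 were lower on day 14 than on day 10. Neither filter moved a count by over 1.5 times. The cause of these shifts was not tested.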
